A study of Mus musculus with 30 samples.

Results

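The miR-34 family comprises 3 microRNA genes in the mouse, Mir34a, Mir34b and Mir34c, out of 2201 miRNA gene symbols in the GENCODE vM21 annotation. Reads of the family were collected by sequence: a read was assigned to a member when its whole sequence matched the member's hairpin exactly and in the sense direction. All 3 members were detected in all 30 libraries, with 18408 reads in traditional-seq and 11852 reads in PANDORA-seq. No read of the family matched another miRNA hairpin, and none was wholly contained in another annotated transcript.

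The libraries were prepared from small RNA of the prefrontal cortex (labelled cortex) of 6-month-old mice on a C57BL/6J background. WT littermates were compared with hemizygous 5xFAD mice (AD), a transgenic model of Alzheimer's disease whose transgenes are driven by the neuronal Thy1 promoter. Traditional-seq was performed without enzyme treatment on 7 WT and 7 AD libraries. PANDORA-seq, in which T4PNK and AlkB treatment precedes library construction so that RNAs with modified ends or bases can be cloned, was performed on 8 WT and 8 AD libraries. Both sexes were used, and the sex of each library was not used here. The submitters call the libraries of a group biological replicates, and p-values measure the spread between these libraries.

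Members of the miR-34 family are known as direct transcriptional targets of p53. They repress mRNAs of the cell cycle and of survival pathways, and in the brain miR-34a and miR-34c have been studied in neuronal ageing and memory. A hairpin precursor yields a 5p and a 3p mature strand, and bases 2 to 8 of the mature strand, the seed, pair with target mRNAs. miR-34b and miR-34c are processed from 1 shared primary transcript and are best known from multiciliated epithelia, where the miR-449 cluster carries the same 5p seed.

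Mir34a (ENSMUSG00000065493.1) lies on the plus strand at chr4:150068454-150068555 of GRCm38, where it overlaps an exon of the gene model Gm37795 (biotype TEC) on the same strand. Mir34b (ENSMUSG00000065492.1, chr9:51103562-51103645) and Mir34c (ENSMUSG00000065587.1, chr9:51103034-51103110) lie on the minus strand within an intron of Btg4, a gene on the opposite strand. The mature strands, from RefSeq and placed on GRCm38.p6, are shown because the arm from which a read comes decides its seed. They are written 5′ to 3′ with the seed in capitals, and miR-34c-5p is named only.
miR-34a-5p: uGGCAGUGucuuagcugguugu
miR-34b-5p: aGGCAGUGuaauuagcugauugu
miR-449a-5p: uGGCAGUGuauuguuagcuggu
miR-449c-5p: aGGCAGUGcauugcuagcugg
miR-34a-3p: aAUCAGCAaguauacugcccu
miR-34b-3p: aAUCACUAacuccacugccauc
miR-34c-3p: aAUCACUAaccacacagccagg

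The 4 printed 5p strands share the seed GGCAGUG, and the 3p strands of miR-34b and miR-34c share the seed AUCACUA. The seed of miR-34a-3p, AUCAGCA, differs from it. The hairpins of Mir34a and Mir34b are printed whole because their reads fill 1 arm of Mir34a and the opposite arm of Mir34b. The mature strands are in capitals.
Mir34a hairpin: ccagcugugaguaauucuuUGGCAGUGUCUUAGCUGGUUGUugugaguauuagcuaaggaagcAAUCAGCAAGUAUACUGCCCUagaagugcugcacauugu
Mir34b hairpin: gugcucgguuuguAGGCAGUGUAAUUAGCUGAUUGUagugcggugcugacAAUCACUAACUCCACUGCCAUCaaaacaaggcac

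The libraries of the 2 protocols differed in depth. Traditional-seq libraries held 9370669 to 17053412 reads, of which 35.88 to 50.29% matched a miRNA hairpin, whereas PANDORA-seq libraries held 54926347 to 105876141 reads, of which 1.51 to 5.538% matched one. The number of miRNA reads was 3879671 to 7090394 in traditional-seq and 829202 to 3634848 in PANDORA-seq. In PANDORA-seq, reads of 43 to 45 nt made up 11.25 to 21.53% of the WT libraries and 2.128 to 10.67% of the AD libraries, and these ranges did not overlap. In traditional-seq they made up 0% of every library. Reads with an undetermined base (N) numbered 6827 to 14773 per traditional-seq library and 0 in every PANDORA-seq library. The neuronal miRNAs Mir9 and Mir128 were abundant in every group, whereas Mir124a was much lower, most of all in traditional-seq. Levels were scaled as miRNA RPM, the reads per 1000000 miRNA reads of the same library. The mean summed level of the neuron list was 347293 miRNA RPM in WT and 323711 in AD libraries of traditional-seq, and 167464 in WT and 132295 in AD libraries of PANDORA-seq. Of these sums, the Mir128 genes held 258070 and 239551 in traditional-seq, and 95009 and 62670 in PANDORA-seq. In PANDORA WT and AD libraries the Mir9 genes held 67903.5 and 63501.5, and the Mir124a genes held 4137 and 5785. In traditional WT and AD libraries the Mir9 genes held 87804 and 83066, and the Mir124a genes held 1062 and 819. Markers of liver and muscle were not absent. Their summed level averaged 2399 miRNA RPM in traditional WT, 4706 in traditional AD, 3989 in PANDORA WT and 4843 in PANDORA AD libraries. Its highest value was 7975 in traditional WT and 23976 in traditional AD. In that list Mir122 of the liver averaged 260 in traditional WT and 3819 in PANDORA WT libraries. The shared feature of the muscle genes Mir1a-1 and Mir1a-2 averaged 2065 and 80.6 in these groups. In traditional AD this feature averaged 4122, with a highest value of 21719.5.

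Levels are given in this miRNA RPM. The printed mature strands are 21 to 23 nt long, so read counts of the arms were compared without scaling for length. The 3 members were used on different arms. Mir34a and Mir34c were read almost wholly from the 5p arm, whereas Mir34b was read mainly from the 3p arm, as the plot of reads along the hairpins shows.

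**Figure D1:**
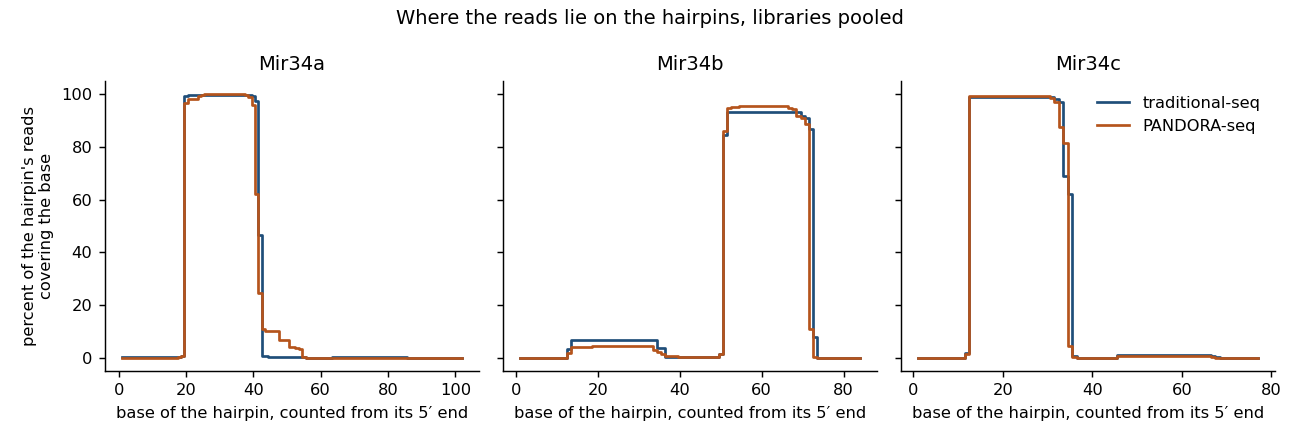
Percent of each hairpin's reads that cover each base, counted from the hairpin's 5′ end, with the libraries of a protocol pooled. Reads of Mir34a and Mir34c fill the 5p arm and reads of Mir34b the 3p arm in both protocols; with PANDORA-seq the right edges of Mir34b and Mir34c lie about 1 base further left, and Mir34a reads extend into the loop.

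miR-34c-5p was the most abundant strand of the family by reads. In traditional-seq its level ran from 111 over a median of 183 to 490 in the WT libraries and from 94.4 over 130 to 479 in the AD libraries. In PANDORA-seq it ran from 75.7 over 115 to 416 in WT and from 57.7 over 216 to 748 in AD. The WT and AD ranges overlapped in both protocols. It ranked 142 among 2195 arms with reads in traditional-seq and 194 among 3727 in PANDORA-seq.

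miR-34a-5p, which represses cell cycle mRNAs, came next. Its level ran from 7.01 over a median of 22.6 to 53.5 in traditional WT libraries and from 6.59 over 27.1 to 101 in traditional AD libraries. In PANDORA-seq it ran from 24.2 over 38.4 to 88.9 in WT and from 19.8 over 76.0 to 117 in AD. Of the 8 PANDORA AD libraries, 4 lay above every WT library and 1 lay below every WT library.

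miR-34b-3p was the lowest of the 3 main strands. Its level ran from 6.21 over a median of 14.5 to 19.3 in traditional WT and from 3.51 over 11.4 to 21.6 in traditional AD libraries. In PANDORA-seq it ran from 5.23 over 11.1 to 32.8 in WT and from 11.9 over 15.8 to 31.1 in AD. The groups overlapped in both protocols.

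**Figure D2:**
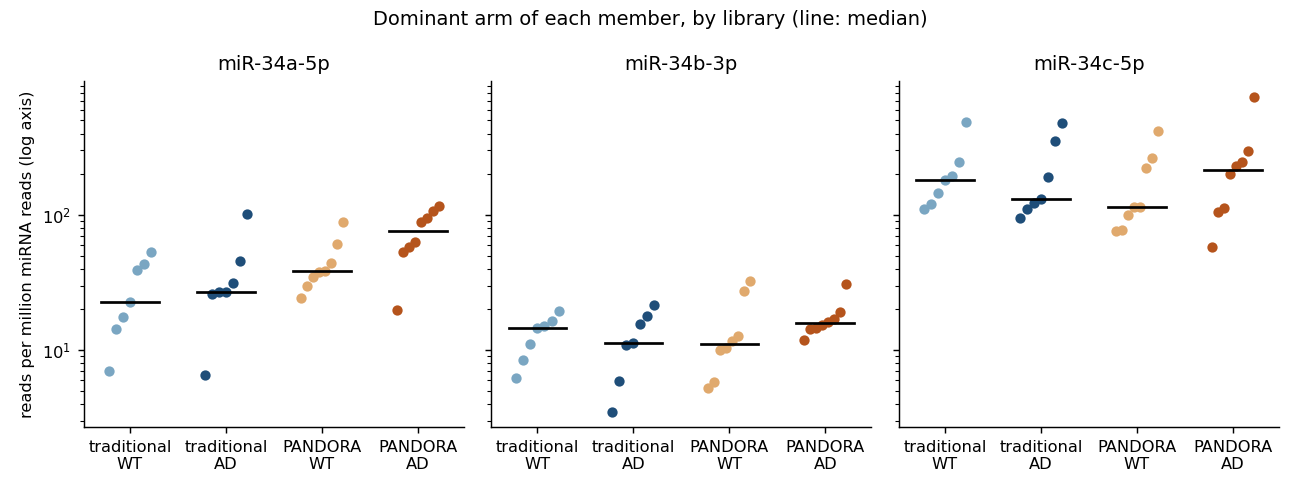
miRNA RPM (log axis) of miR-34a-5p, miR-34b-3p and miR-34c-5p in each library, by protocol and genotype; each point is a library and the line is the group median. miR-34c-5p reaches 748 in 1 PANDORA AD library, and the WT and AD points overlap in every panel.

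The order of the strands was tested within libraries by a two-sided exact sign-flip permutation test on the log2 ratio of their reads, with 4 tests adjusted together. This test was chosen after the data were seen. In traditional-seq, miR-34c-5p exceeded miR-34a-5p in 14 of 14 libraries, by 7.00-fold on the geometric mean (range 1.89 to 26.03, adjusted p = 0.000244). In PANDORA-seq it was higher in 14 of 16 libraries, by 3.15-fold (range 0.604 to 15.0, adjusted p = 0.000285). miR-34a-5p exceeded miR-34b-3p in 11 of 14 traditional-seq libraries by 2.28-fold (adjusted p = 0.0121). In PANDORA-seq it did so in 15 of 16 libraries by 3.72-fold (adjusted p = 0.000244). Thus the mean order of reads, miR-34c-5p, miR-34a-5p, miR-34b-3p, was the same in both protocols, although single libraries departed from it. Capture efficiency differs between miRNA sequences and was not measured, so the order of the molecules was not tested.

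The opposite strands were rare. miR-34a-3p was read 3 times in traditional-seq and 1 time in PANDORA-seq. Among the PANDORA AD libraries it had 0 of 1459 Mir34a reads, which allows a share of up to 0.206% (counting error only). miR-34c-3p, with the seed it shares with miR-34b-3p, had 158 traditional-seq and 68 PANDORA-seq reads. The 5p share of Mir34c was 99.0% ± 0.581 (SD, n = 14) in traditional-seq and 99.0% ± 1.17 (SD, n = 16) in PANDORA-seq. miR-34b-5p had 66 reads in traditional-seq, and the 5p share of Mir34b averaged 8.58% ± 3.97 in WT and 7.23% ± 8.48 in AD libraries (SD, n = 7 each). Without AD replicate 7, where it was 25%, the AD mean was 4.26% ± 3.54 (SD, n = 6). Mir34b reads in PANDORA-seq were too few in some libraries for a share, with a minimum of 20 reads required.

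miR-34b-5p was read from 2 main start sites. In traditional-seq 33 reads began at hairpin base 14, the annotated start, and 33 at base 13. The most abundant read of each kind is printed because the start sets the seed, which is in capitals.
start at base 14, 30 reads: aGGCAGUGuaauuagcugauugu
start at base 13, 29 reads: uAGGCAGUguaauuagcugauu
In PANDORA-seq 16 reads began at base 14, 10 at base 13 and 2 at base 19. The other strands had 1 main start. In traditional-seq 99.14% of miR-34a-5p reads began at base 20, 98.12% of miR-34c-5p reads at base 13 and 89.31% of miR-34b-3p reads at base 51. A further 9.372% of miR-34b-3p reads began 1 base later, at base 52, as in aUCACUAAcuccacugccauc (48 reads), where the seed is again in capitals. In PANDORA-seq 9.5% of miR-34b-3p reads had this later start.

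AD was compared with WT within each protocol to determine whether the family responds in the 5xFAD cortex. In traditional-seq no member passed the test. The log2 fold change of AD over WT was 0.55 (SE 0.52) for Mir34a, -0.07 (SE 0.34) for Mir34b and 0.07 (SE 0.36) for Mir34c, each with an adjusted p of 0.998 in edgeR's quasi-likelihood test over 422 hairpin features. At an adjusted p under 0.05 the fit called 0 features (0%), 8 had an unadjusted p under 0.05, and DESeq2 called 0 as well, with 10 at that unadjusted p. The Mir34a value rested on AD replicate 2, the library with 101 miRNA RPM. Without it the log2 fold change was -0.04.

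In PANDORA-seq all 3 fitted values were above 0, but none passed the test. The log2 fold change was 0.997 (SE 0.344) for Mir34a with an unadjusted edgeR p of 0.00925 and an adjusted p of 0.340. Over the 9 alternative settings its adjusted p ranged from 0.143 to 0.803. The values were 0.64 (SE 0.35, adjusted p = 0.499) for Mir34b and 0.74 (SE 0.47, adjusted p = 0.545) for Mir34c. With the miRNA reads as library size in place of TMM the log2 fold changes were 0.74, 0.29 and 0.52. Of the 604 hairpin features tested, 75 had an unadjusted p under 0.05 and 1 was called (0.166%), Mir1291, which was lower in AD and was named after its value was seen. The median over all features was 0.03. The Mir34c value rested in part on AD replicate 4, with 748 miRNA RPM of miR-34c-5p, and was 0.30 without it. The share of 43 to 45 nt reads also moved with genotype in these libraries, and its part in the values was not tested. In tissue RNA, a difference in the number of cells that express a miRNA and a difference in its level per cell cannot be told apart.

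**Figure D3:**
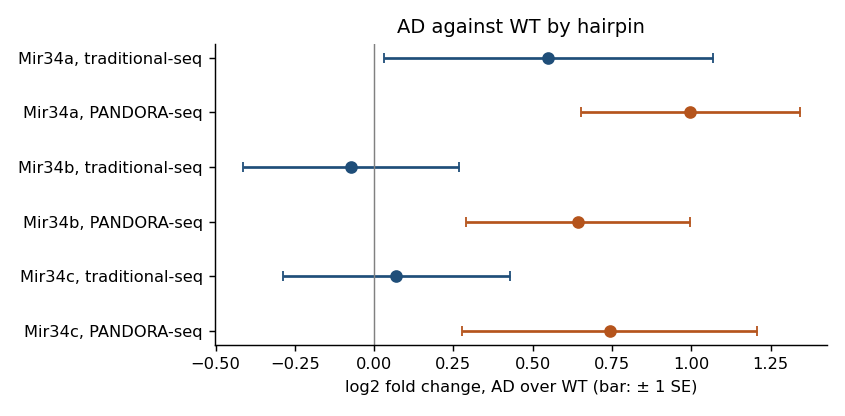
Log2 fold change of AD over WT (x axis) for each hairpin in each protocol, from edgeR's quasi-likelihood fit; points are the fitted values and bars are ± 1 SE. Traditional-seq values for Mir34b and Mir34c lie at -0.07 and 0.07, and PANDORA-seq values lie between 0.643 and 0.997, with no adjusted p below 0.340.

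By arm, no member passed the test either. For miR-34a-5p in PANDORA-seq the log2 fold change was 0.96 (SE 0.35, adjusted p = 0.373). Of 741 arms in that fit, 96 had an unadjusted p under 0.05 and 1 was called (0.135%), Mir1291-5p, whereas 0 of 549 arms (0%) were called in traditional-seq, where 8 had an unadjusted p under 0.05 with edgeR's quasi-likelihood test and edgeR's likelihood ratio test also called 0. When scaled to all reads of the library (total RPM), miR-34a-5p was 1.13 ± 0.581 in PANDORA WT and 2.32 ± 1.08 in PANDORA AD libraries (SD, n = 8 each). This difference gave a two-sided exact permutation p of 0.0361 and an adjusted p of 0.391 over 15 measures.

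The difference of the AD effect between protocols was tested in 1 fit of all 30 libraries. The AD effect in PANDORA-seq minus that in traditional-seq was 0.60 (SE 0.61) for Mir34a, 0.83 (SE 0.52) for Mir34b and 0.83 (SE 0.66) for Mir34c on the log2 scale, and 0.31, 0.39 and 0.54 with the miRNA reads as library size. With TMM each had an adjusted p of 0.942, and 0 of 805 features (0%) were called by edgeR's quasi-likelihood test, with 45 at an unadjusted p under 0.05. The AD effect on a member was thus not shown to differ between protocols.

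Of 16 single measures in traditional-seq and 15 in PANDORA-seq, among them read length, the 5′ end and the use of the arms, 0 differed between AD and WT after adjustment. The smallest unadjusted two-sided exact permutation p in traditional-seq was 0.0233 (adjusted p = 0.373), for the share of miR-34c-5p reads at the main 5′ end. This share was 98.6% ± 0.549 in WT and 97.6% ± 0.846 in AD libraries (SD, n = 7 each), and 4 of 7 AD libraries lay below all WT libraries. Reads that began 1 base earlier, at base 12, made up 1.301% of the pooled WT reads and 2.268% of the pooled AD reads. In PANDORA-seq the corresponding pooled values were 1.153% and 1.208%.

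PANDORA-seq was then compared with traditional-seq. The direction of the change in level depended on the scale. In miRNA RPM, miR-34a-5p was 33.0 ± 24.1 in traditional-seq (SD, n = 14) and 60.05 ± 30.5 in PANDORA-seq (SD, n = 16), a log2 ratio of 1.02 (permutation test, adjusted p = 0.00975 over 15 measures). miR-34b-3p (12.7 ± 5.39 and 15.98 ± 8.10; log2 ratio 0.31, adjusted permutation p = 0.360) did not pass the test. Neither did miR-34c-5p (212 ± 134 and 212 ± 174; log2 ratio -0.13, adjusted permutation p = 0.736). In total RPM, the log2 ratios were -2.94 for miR-34a-5p, -3.64 for miR-34b-3p and -4.09 for miR-34c-5p, each with a permutation p of 1e-05, the smallest that 100000 permutations can give, and an adjusted p of 2.14e-05.

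In the edgeR fit with TMM normalization the log2 fold change of PANDORA-seq over traditional-seq was -0.62 (SE 0.30, adjusted p = 0.0564) for Mir34a, -1.19 (SE 0.27, adjusted p = 9.71e-05) for Mir34b and -1.46 (SE 0.34, adjusted p = 0.000158) for Mir34c. Here 700 of 805 features were called (87%), 58.9% of the features higher and 28.1% lower (474 and 226), and the median over all features was 1.79. With the miRNA reads as library size the split was 595 higher and 123 lower, with all reads it was 299 and 400, and with reads of 18 to 26 nt it was 322 and 178. Relative to the median of 1.79, Mir34a lay at -2.41, Mir34b at -2.98 and Mir34c at -3.25. With the miRNA reads as library size the members' own values were 0.83, 0.27 and -0.03, with the signs of Mir34a and Mir34b turned, and relative to that fit's median they were -2.42, -2.98 and -3.28. With reads of 18 to 26 nt alone the median over all features was 1.009, and the members lay nearer to it, at -1.13, -1.56 and -1.77. Without a filter on low counts the median was 1.138 and the members lay at -1.84, -2.41 and -2.64. The distance of the family from the median thus depended on the read lengths and the features included.

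Reads of 18 to 26 nt from both tested 5p strands were shorter in PANDORA-seq. Over all reads, the mean length of miR-34c-5p differed by -0.61 nt (permutation test, adjusted p = 2.14e-05), and that of miR-34a-5p, with its long reads included, by 0.32 nt (permutation test, adjusted p = 0.271). Among reads of 18 to 26 nt, the mean length of miR-34c-5p was 22.3 nt ± 0.115 (SD, n = 14) in traditional-seq and 21.7 nt ± 0.0699 (SD, n = 16) in PANDORA-seq, and the libraries of the protocols did not overlap. For miR-34a-5p the values were 22.4 nt ± 0.150 and 21.6 nt ± 0.153, again without overlap. Such a non-overlapping shortening was found in 172 of 230 arms with at least 20 reads in every library (74.8%), a non-overlapping lengthening in 4 (1.74%), and the median difference over the 230 arms was -0.82 nt. The differences of miR-34a-5p (-0.74 nt) and miR-34c-5p (-0.59 nt) were smaller, and 137 and 169 of the arms had a lower value. The trimming of the deposited reads is not given in the sources used here, and its part in the difference in length was not tested.

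**Figure D4:**
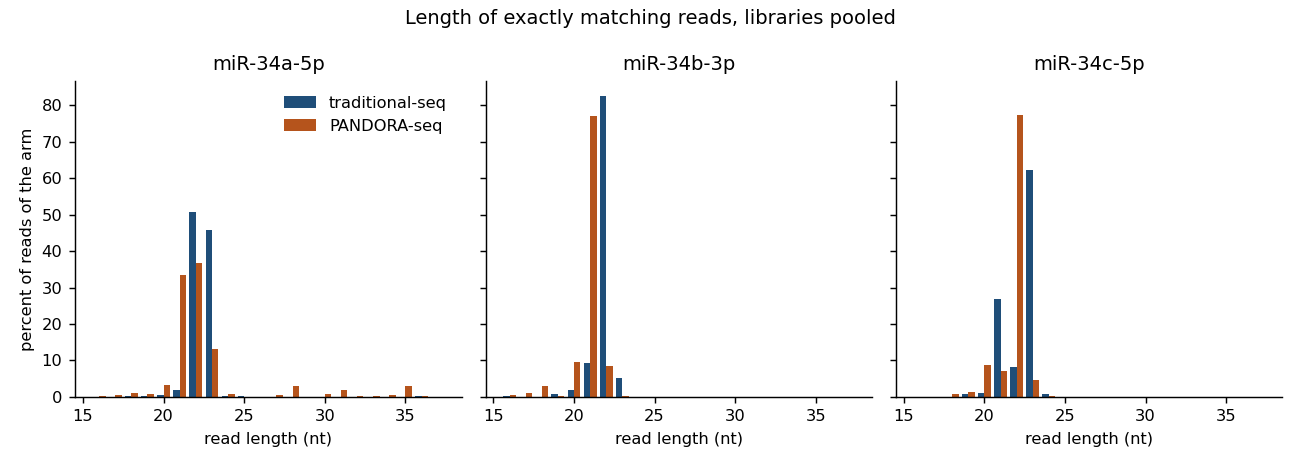
Length in nt (x axis) of exactly matching reads of the 3 main strands, as percent of the reads of the strand, with the libraries of each protocol pooled. The tallest PANDORA-seq bar lies at 21 nt for miR-34b-3p and 22 nt for miR-34c-5p, 1 nt below the tallest traditional-seq bar, and only miR-34a-5p has PANDORA-seq reads of 27 to 37 nt.

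The distributions showed single-base steps. In traditional-seq 61.2% ± 5.76 of miR-34c-5p reads were 23 nt, 27.4% ± 5.51 were 21 nt and only 8.51% ± 1.40 were 22 nt (SD, n = 14). In PANDORA-seq 75.3% ± 4.85 were 22 nt and 5.02% ± 1.87 were 23 nt (SD, n = 16). For miR-34b-3p, pooled over libraries, the annotated strand ending at hairpin base 72 gave 714 reads or 78.72% in traditional-seq and 48 reads or 8% in PANDORA-seq. The strand ending 1 base earlier gave 37 reads or 4.079% and 443 reads or 73.83%. These reads are printed because they differ only in the last base, which is in capitals.
ending at base 72: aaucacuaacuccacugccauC
ending at base 71: aaucacuaacuccacugccaU
miR-34a-5p had 2 lengths of similar weight in traditional-seq, 22 nt (50.77%) and 23 nt (45.84%), against 36.72% and 13.21% in PANDORA-seq, where 33.54% were 21 nt. Its most frequent last base was hairpin base 41 in both protocols. Over all 201 arms of a single gene with enough reads, the most frequent last base was 1 nt earlier in PANDORA-seq in 136 and the same in 34.

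Reads of miR-34a-5p that ran on into the loop were found with PANDORA-seq. Reads over 26 nt made up 10.17% of its pooled PANDORA-seq reads against 0.129% in traditional-seq, and 0% of miR-34b-3p and miR-34c-5p reads in either protocol. In single PANDORA-seq libraries the share ran from 1.786 to 34.38% of miR-34a-5p reads, and the highest share came from a WT library with only 32 such reads. All 16 PANDORA-seq libraries held at least 2 reads of this kind, whereas 12 of 14 traditional-seq libraries held none. The main lengths were 35 nt (68 reads of the printed sequence), 28 nt (65 reads) and 31 nt (40 reads). They are printed with the bases beyond the annotated strand in capitals.
35 nt: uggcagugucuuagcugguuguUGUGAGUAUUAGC
28 nt: uggcagugucuuagcugguuguUGUGAG
31 nt: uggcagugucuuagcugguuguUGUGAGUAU
Of 510 arms with at least 100 reads in each protocol, 102 had a higher share of reads over 26 nt in PANDORA-seq than miR-34a-5p, and the median share was 0.323%. The deposited traditional-seq libraries held 0% reads of 43 to 45 nt. The part of read processing in the protocol difference of miR-34a-5p was not tested.

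Reads with 1 added 3′ base, that is, reads that match the hairpin but for the last base, were also compared. This measure was chosen after the data were seen. In traditional-seq they made up 25.97% ± 6.66 of miR-34a-5p and 12.1% ± 3.36 of miR-34c-5p reads (SD, n = 14). In PANDORA-seq they made up 12.8% ± 6.17 and 1.01% ± 1.84 (SD, n = 16). Both differences passed a two-sided permutation test (adjusted p = 3e-05 over 6 tests). Reads that match both Mir34b and Mir34c with 1 mismatch are left out of these shares. The shares of miR-34c-5p with such reads included are higher and are given below. How the ends of the deposited reads were trimmed is not given in the sources used here, and its part in these differences was not tested. For miR-34b-3p, 250 reads with an added base stood beside 907 exact reads in traditional-seq and 2 beside 600 in PANDORA-seq. Over 201 arms the median of the mean share was 22.2% in traditional-seq and 3.001% in PANDORA-seq, and the PANDORA-seq libraries lay wholly below the traditional-seq libraries in 146 arms (72.6%).

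The added bases were counted by strand, with no test. An added base that equals the next hairpin base makes an exact read and was not counted. The next base is U after the annotated miR-34a-5p and A after the annotated miR-34b-3p, so the additions that can be seen differ by strand. In traditional-seq, miR-34b-3p had mostly U (194 of 250 reads, read as T) and miR-34a-5p both A (352) and C (337) among 843 reads. In PANDORA-seq the 344 added bases of miR-34a-5p were A in 270 reads. The difference in share between AD and WT did not pass the test for either 5p strand in either protocol, with adjusted exact permutation p of 0.907 to 0.980. For miR-34c-5p the shares above leave out reads that match both Mir34b and Mir34c with 1 mismatch, among them 4053 traditional-seq reads that match Mir34c but for a last U. With them included, U was added in 4090 and A in 1490 of 6106 traditional-seq reads, and U in 210 of 261 PANDORA-seq reads. The share of miR-34c-5p with an added base was then 28.3% ± 6.91 in traditional-seq (SD, n = 14) and 3.51% ± 2.48 in PANDORA-seq (SD, n = 16), with a permutation p of 1e-05. Read as Mir34b, these reads would hold a mismatch before their last base. In traditional-seq Mir34b had 66 exact 5p reads and 17 reads with such a mismatch that matched it alone. The 4053 shared reads outnumber both, and their source was not tested.

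**Figure D5:**
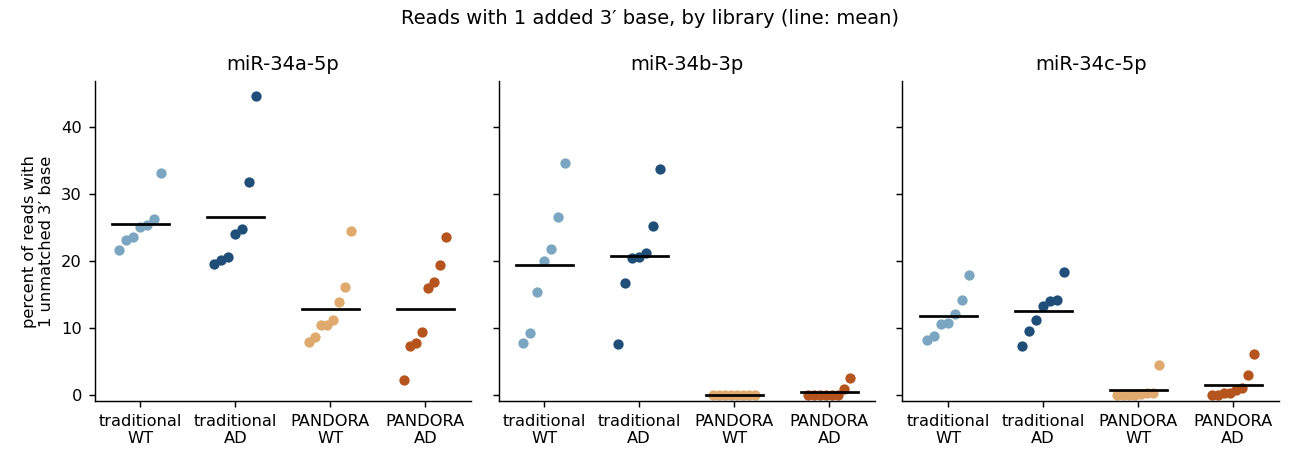
Percent of reads with 1 unmatched 3′ base, among exact reads and such reads, in each library by protocol and genotype; each point is a library and the line is the group mean. Reads shared by Mir34b and Mir34c are left out. Traditional-seq libraries lie between 7.34 and 18.4% for miR-34c-5p and PANDORA-seq libraries between 0 and 6.10%, with WT and AD overlapping in both.

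Other miRNAs of the p53 network were examined as a list of 13 genes, of which 12 are in the annotation and 10 had a feature that passed the filter on low counts. The list held, among others, Mir15a and Mir16-1, which act on cell cycle regulators, Mir143 and Mir145a, which mark smooth muscle, and the epithelial Mir200c. In traditional-seq 0 of 12 features were called (0% over all features), 5 lay above 0, and the median log2 fold change of AD over WT was -0.04 against -0.01 over all 422 features. In PANDORA-seq 0 of 12 were called (0.166% over all features), 8 lay above 0, and the median was 0.13 against 0.03 over all 604 features. The features with an unadjusted edgeR p under 0.05 there included Mir194-2 (1.21, SE 0.42, adjusted p = 0.340) and Mir200c (-2.02, SE 0.94, adjusted p = 0.382). The mean summed level of the list was 9092 miRNA RPM in traditional WT, 10274 in traditional AD, 4631 in PANDORA WT and 4609 in PANDORA AD libraries. Most of these sums was Mir143, which alone held 7722, 9022, 3331 and 3700. The median sum was 3950 in PANDORA WT and 3460 in PANDORA AD libraries, and the highest PANDORA AD value was 14569.

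The miR-449 genes, which share the 5p seed, were nearly absent. Mir449a had 30 reads in 9 of 14 traditional-seq libraries and 36 reads in 10 of 16 PANDORA-seq libraries. Mir449c had 7 reads, all in PANDORA-seq, and Mir449b had 0, which allows up to 0.0422 miRNA RPM in the pooled traditional-seq libraries and 0.0798 in PANDORA-seq. Mir204, an abundant miRNA of the choroid plexus, was present in every library. Its level ran from 452 to 1229 miRNA RPM in traditional WT, from 469 to 711 in traditional AD, from 2042 to 4572 in PANDORA WT and from 1569 to 10797 in PANDORA AD libraries. With edgeR, its log2 fold change of AD over WT was 1.003 (SE 0.439, adjusted p = 0.340) in PANDORA-seq and -0.53 (SE 0.27, adjusted p = 0.998) in traditional-seq. It therefore moved with the same sign as the fitted values of Mir34a, Mir34b and Mir34c in PANDORA-seq, and its part in them was not tested. Mir449a and Mir449c, of the same choroid plexus and ependyma list, were lower in PANDORA AD, on few reads. Mir449a averaged 0.941 miRNA RPM in PANDORA WT and 0.655 in PANDORA AD libraries, and Mir449c averaged 0.298 and 0. By library, PANDORA AD replicates 4 and 8, the highest of their group in miR-34c-5p, held 7 and 8 Mir449a reads. PANDORA WT replicates 1 and 6, the highest of theirs, held 4 and 6. Traditional AD replicate 1 and WT replicate 2, the highest of their groups, held 0 and 4. These counts are small and are given without a test. Of the marker lists of neurons, oligodendrocytes, microglia and leukocytes, erythroid cells, vessels, and liver and muscle, with 2 to 14 features tested in each, 0 features were called in either protocol, against 0% of all features in traditional-seq and 0.166% in PANDORA-seq. In PANDORA-seq, edgeR gave the muscle marker Mir206 a log2 fold change of 4.41 (SE 1.13, adjusted p = 0.187), with 20.2 to 202.7 miRNA RPM in WT and 30.5 to 3454 in AD libraries. The other tested features of the liver and muscle list lay at -0.11 (SE 0.43) for the shared feature of Mir1a-1 and Mir1a-2, 0.80 (SE 0.42) for that of Mir133a-1 and Mir133a-2 and 0.24 (SE 0.40) for Mir122. The neuronal features at an unadjusted edgeR p under 0.05 were the shared feature of the Mir124a genes (0.71, SE 0.25), Mir128-1 (-0.45, SE 0.20) and the shared feature of Mir128-1 and Mir128-2 (-0.45, SE 0.19), each with an adjusted p of 0.340. In traditional-seq, 2 of 5 features of the microglia and leukocyte list had an unadjusted edgeR p under 0.05, Mir155 (1.38, SE 0.44) and Mir146 (1.14, SE 0.44). Mir142 lay at 0.74 (SE 0.36), the shared feature of Mir146 and Mir146b at 0.05 (SE 0.67) and Mir223 at -0.35 (SE 0.41). Of the oligodendrocyte list 1 of 4 did, Mir219a-2 (0.81, SE 0.37). Mir219a-1 lay at -0.005 (SE 0.29), the shared feature of Mir219a-1 and Mir219a-2 at 0.60 (SE 0.67) and Mir338 at 0.29 (SE 0.30). Each had an adjusted p of 0.998. The part of these markers in the members' values was not tested.

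The miRNAs whose levels across the 14 traditional-seq libraries were most like those of each member were ranked by Spearman's rho of log2 CPM (reads scaled to library size by TMM), after the genotype means were removed, over 421 other features of the same libraries. The nearest to Mir34a were Mir384 (rho 0.90), the shared feature of Mir16-1 and Mir16-2 (0.90) and Mir490 (0.90). Mir34b was nearest to Mir375 (0.69), Mir7-2 (0.68) and Mir1251 (0.64), and Mir34c to Mir448 (0.74), Mir1298 (0.67) and Mir431 (0.67). Between Mir34b and Mir34c rho was 0.50 in traditional-seq and 0.53 over the 16 PANDORA-seq libraries, between Mir34a and Mir34c it was 0.05 and -0.06, and between Mir34a and Mir34b it was -0.46 and -0.04. These values share library depth and normalization and are given as a description.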

How the data were processed

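The authors deposited for each of the 30 libraries a raw read count for every distinct sequence of the cleaned reads, without normalization or annotation. Per the paper's methods, RNA of 15 to 50 nt was cut from a gel and cloned with the NEBNext small RNA kit, and their own annotation used SPORTS1.1; the submitters' notes list the build mm39. Here the whole sequence of each read was matched to the miRNA hairpins of GENCODE vM21 (GRCm38) in the sense direction. A feature is the set of miRNA genes that a read matches exactly, each read was counted once, and the arm was set by the centre of the read. Capture efficiency differs between miRNA sequences and was not measured.

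AD was compared with WT within a protocol by edgeR's quasi-likelihood test (version 4.0.16, R 4.3.3). Libraries were scaled by TMM, features with low counts were removed by filterByExpr (a count of 10 and a total of 15), and p-values were adjusted by Benjamini-Hochberg over all features, with a threshold of 0.05. In data simulated from the libraries, the traditional-seq fit of 422 features recovered 44 of 100 features changed 2-fold and 94 of 100 changed 4-fold. The PANDORA-seq fit of 604 features recovered 43 of 100 and 95 of 100. Among the unchanged features, 3 were called in the simulated traditional-seq data and 9 in the simulated PANDORA-seq data. Each simulated fit held both sets of changed features, far more than the real fits called. The adjustment is less strict when more features change, so recovery can be lower where few do. Single measures were tested by two-sided exact permutation over 3432 splits (7 against 7) or 12870 splits (8 against 8), and between protocols by 100000 permutations (Python 3.11.15, numpy 2.4.6). A share or length was used where every library had at least 20 reads. Reads carry no molecular identifiers, so counting limits cover counting error only.

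The genes named are the members with both arms, the miR-449 genes of the same seed and the 3 features most like each member. Members of the list of p53-linked miRNAs were to be named where called, and none was, so those named, like Mir1291 and the cell type markers, were chosen outside this rule, the ones with values after these were seen. Of the most abundant sequences per arm, those that carry a result are printed. The members and lists were chosen with earlier results of these data known. Replicate numbers of WT and AD libraries did not pair them: the correlations of same-numbered libraries ran from -0.4105 to 0.3953 in traditional-seq and from -0.5109 to 0.4511 in PANDORA-seq. As alternatives, DESeq2 1.42.0, the likelihood ratio test of edgeR, other library sizes, no filter, a replicate block, reads of 18 to 26 nt, 1 mismatch and each library left out were tried.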

Additional observations from a re-analysis of the deposited data

Results flagged for a closer look

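Of 62 groups checked, 18 had a library that stood apart from the rest of its group by Dixon's test. For normally distributed values chance gives about 1 in 20 groups. Levels were checked here without logs and shares have an upper limit, so chance can flag more groups than that. Many of these measures share libraries and reads, so the 18 are not independent.

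PANDORA AD replicate 4 stood apart in 5 measures. It held 748 miRNA RPM of miR-34c-5p against 57.7 to 296 in the other 7 libraries, 31.1 of miR-34b-3p against 11.9 to 19.3, and 848 of the family against 169 to 374. In total RPM it held 35.5 of miR-34c-5p against 1.94 to 10.03 and 40.3 of the family against 4.11 to 11.3.

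In traditional-seq, WT replicate 2 held 490 miRNA RPM of miR-34c-5p against 111 to 247 in the other 6 libraries, and 552 of the family against 142 to 310. In total RPM it held 189 of miR-34c-5p against 52.5 to 110. AD replicate 2 held 101 miRNA RPM of miR-34a-5p against 6.59 to 45.96, and 50.7 in total RPM against 2.53 to 22.2.

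The other libraries stood apart in the shape of the reads, often on few reads. In traditional AD replicate 5, miR-34a-5p had a mean length of 21.97 nt against 22.36 to 22.57, with 90.3% of reads of 21 to 23 nt against 97.6 to 100% and 90.3% at the main 5′ end against 97.0 to 100%. The 5p share of Mir34b was 25% in traditional AD replicate 7 against 0 to 8.77%, and that of Mir34c was 97.7% in traditional AD replicate 4 against 98.8 to 99.4%. In PANDORA-seq, miR-34a-5p had a mean length of 24.0 nt in AD replicate 1 against 21.8 to 22.7, and 65.6% of its reads lay at the main 5′ end in WT replicate 7 against 94.0 to 100%. Reads of miR-34c-5p of 21 to 23 nt made up 77.7% in PANDORA AD replicate 3 against 85 to 90.4%.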

How the results depend on the processing

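No member was called between AD and WT under any alternative run. The count of called hairpins in PANDORA-seq, 1 as reported, was 4 with the likelihood ratio test, 3 with DESeq2, 15 without a filter, and 0 with all reads as library size or with reads of 18 to 26 nt. With the likelihood ratio test 4 arms were called. With the replicate number as a block, 0 hairpins and 0 arms were called in PANDORA-seq. The block turned the traditional-seq log2 fold change of Mir34c to -0.0846 and of miR-34c-5p to -0.0922, although the numbers did not pair the libraries. Without a filter, 1 hairpin was called in traditional-seq (0 as reported), 2 in the interaction (0) and 1585 between protocols (700). Leaving out each library gave 0 to 2 hairpins and 0 to 2 arms in PANDORA-seq. The cause of these changes was not tested.

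With the miRNA reads as library size, the traditional-seq AD value of Mir34c was -0.0140, and the protocol values were 0.83 for Mir34a and 0.27 for Mir34b, each of the opposite sign to that reported. With reads of 18 to 26 nt, the protocol difference in the mean length of miR-34a-5p was -0.74 nt, since the long reads are then left out, and the protocol log2 ratio of miR-34c-5p in miRNA RPM was 0.0502. The AD differences in mean length of miR-34a-5p were then -0.0025 nt in traditional-seq and 0.0127 nt in PANDORA-seq, and the difference in its share at the main 5′ end in PANDORA-seq was -1.04 percentage points.

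With each library left out, the traditional-seq log2 fold changes ran from -0.0432 to 0.77 for Mir34a, -0.25 to 0.0581 for Mir34b, -0.18 to 0.26 for Mir34c, -0.18 to 0.12 for miR-34b-3p and -0.17 to 0.24 for miR-34c-5p. In miRNA RPM they ran from -0.23 to 0.18 for the family, -0.37 to 0.0681 for miR-34b-3p and -0.33 to 0.14 for miR-34c-5p. In total RPM they ran from -0.28 to 0.13 for the family, -0.0414 to 0.68 for miR-34a-5p, -0.43 to 0.0677 for miR-34b-3p and -0.39 to 0.0832 for miR-34c-5p. The traditional-seq differences in mean length ran from -0.0269 to 0.0759 nt for miR-34a-5p and -0.00433 to 0.0524 nt for miR-34c-5p. Those in the share of 21 to 23 nt ran from -0.832 to 1.01 and -0.341 to 0.478 percentage points, and that in the 5p share of Mir34c from -0.272 to 0.0683. In PANDORA-seq the differences for miR-34a-5p ran from -0.368 to 0.135 nt in mean length, -0.896 to 3.46 in the share of 21 to 23 nt and -1.42 to 3.49 in the share at the main 5′ end. That of miR-34c-5p in 21 to 23 nt ran from -1.76 to 0.119. The Mir34a log2 fold change in PANDORA-seq ran from 0.90 to 1.20, with an adjusted edgeR p of 0.122 or more.

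The PANDORA-seq libraries held 600 reads of miR-34b-3p in all, which limits its shares. With reads shared with Mir34b included, an alternative added after the data were seen, the protocol difference in 3′ additions of miR-34c-5p was -24.8 in place of -11.1 percentage points.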

Other observations

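For 14 traditional-seq libraries, the file of a PANDORA-seq library carries the same code, and the sources used here do not say whether the RNA came from the same mouse. This comparison was chosen after the data were seen. Across these 14 pairs, log2 miRNA RPM in the 2 protocols had a Pearson's r of -0.02 for miR-34a-5p (permutation p = 0.935, Spearman's rho -0.03, p = 0.928), -0.17 for miR-34b-3p (permutation p = 0.551, rho -0.12, p = 0.684) and 0.20 for miR-34c-5p (permutation p = 0.500, rho 0.14, p = 0.637). The smallest adjusted p over the 3 strands was 0.827 for r. Without the 2 libraries farthest from the median, r was 0.08, -0.34 and 0.33. Within genotype, r was 0.10 in WT and -0.23 in AD for miR-34a-5p, -0.64 and 0.51 for miR-34b-3p, and -0.40 and 0.64 for miR-34c-5p. The median r over 208 hairpin features was -0.04.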
